A study of Homo sapiens with 3 samples.

Results

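Histone genes were examined in T47D cells, a long-established line from human breast cancer with estrogen and progesterone receptors. They were taken as all probe sets with a single gene symbol in one of the histone families: H1, H2A, H2B, H3, H4 and macroH2A. The symbols gave 60 genes with 85 probe sets, of 19775 genes and 41097 probe sets with 1 symbol on the array. A further probe set that the symbol prefix catches belongs to H1-10-AS1, a noncoding antisense RNA, and was kept out of every count. Its differences were 0.10 for estradiol and 0.31 for tamoxifen against vehicle. Of the 60 genes, 45 (51 probe sets) bear the names of replication-dependent genes, namely H2AC, H2BC, H3C, H4C and H1-1 to H1-6. The other 15 (34 probe sets) are grouped here as variants.

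The cells of all 3 groups were held for 4 h in medium with 10% charcoal-stripped serum and then treated for 3 h. The vehicle group received 0.1% ethanol, the estradiol group 1 uM of the natural estrogen, and the tamoxifen group 1 uM of a selective modulator of the estrogen receptor. Each group is 1 array of RNA from 1 cell line, so no difference has a replicate check and no test was possible, and precision is limited by there being 3 arrays. Whether the treated cells also received ethanol is not given in the sources used here.

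Histones package DNA: the core histones H2A, H2B, H3 and H4 form the nucleosome, around which DNA winds, and the linker histone H1 binds where the DNA enters and leaves it. Replication-dependent genes lie in clusters, have no introns and are transcribed mainly during DNA replication. Most of their messenger RNA ends in a stem-loop, bound by SLBP, in place of a poly(A) tail, although some cluster genes also make polyadenylated RNA. Variant histones such as H2A.Z, H3.3, macroH2A and H1.10 come from genes outside the clusters, are made through the cell cycle as polyadenylated RNA, and are placed in chromatin by dedicated chaperones. Members of a cluster family have nearly the same coding sequence, so a probe set named for a single gene can also read its relatives.

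The promoters of 4 genes at the ends of the measured range are shown as the 250 bases before the start of transcription, from RefSeq on GRCh38.p14 and 5′ to 3′ on the strand of the gene. Capitals mark matches, on either strand, to the CCAAT box (CCAAT), the TATA box (TATAAA) and the octamer (ATTTGCAT), which is typical of H2B promoters. The first stretch (chr6:26123922-26124171, plus strand) is shared by H2AC6, read to the right, and H2BC4, read to the left, whose starts lie 246 bases apart and which were both among the higher genes. H4C8 (chr6:26285535-26285784, minus strand) had the highest difference of estradiol from vehicle. H1-4 (chr6:26156079-26156328, plus strand) and H1-10 (chr3:129316287-129316536, minus strand) were the linker histone genes with the highest and the lowest difference of estradiol from vehicle.
H2AC6 and H2BC4: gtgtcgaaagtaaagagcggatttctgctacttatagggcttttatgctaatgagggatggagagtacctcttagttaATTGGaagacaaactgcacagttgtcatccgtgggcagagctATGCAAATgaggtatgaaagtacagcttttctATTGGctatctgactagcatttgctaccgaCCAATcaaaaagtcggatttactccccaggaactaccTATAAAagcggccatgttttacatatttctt
H4C8: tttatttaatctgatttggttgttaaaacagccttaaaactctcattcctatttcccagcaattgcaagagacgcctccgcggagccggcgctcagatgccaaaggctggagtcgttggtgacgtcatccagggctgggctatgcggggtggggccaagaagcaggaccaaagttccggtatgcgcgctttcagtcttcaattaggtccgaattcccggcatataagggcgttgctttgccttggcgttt
H1-4: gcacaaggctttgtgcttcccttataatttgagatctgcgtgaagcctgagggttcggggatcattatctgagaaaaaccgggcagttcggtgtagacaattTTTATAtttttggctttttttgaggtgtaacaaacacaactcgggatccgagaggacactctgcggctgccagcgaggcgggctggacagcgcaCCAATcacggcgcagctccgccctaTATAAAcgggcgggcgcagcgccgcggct
H1-10: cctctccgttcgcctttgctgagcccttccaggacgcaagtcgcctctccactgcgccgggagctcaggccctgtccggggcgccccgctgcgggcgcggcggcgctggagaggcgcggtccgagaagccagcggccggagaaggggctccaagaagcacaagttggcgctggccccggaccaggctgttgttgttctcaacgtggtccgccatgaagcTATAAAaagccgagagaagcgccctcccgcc
In the shared stretch, the TATA box on the side of H2AC6 starts 31 bases before its start, and the octamer and 3 CCAAT boxes lie between the genes. H1-4 holds a TATA box 29 bases and a CCAAT box 54 bases before the start, and a further TATA match 148 bases before it. H1-10 holds a TATA box 31 bases before the start and no match to the other motifs, and the H4C8 window holds no match to any of the 6 motifs searched. Such matches are descriptions of letters and were not tested as binding sites.

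Over the measured members, the CCAAT box, the TATA box and the octamer were more frequent in replication-dependent promoters than in all promoters. Promoters were found for 53 of the 60 genes, 40 of them replication-dependent with 43 start sites. The CCAAT box was present in 88.4% of the replication-dependent promoters and 72.2% of the 18 promoters of variants, against 32% of all 35116 promoters of this length. The TATA box was present in 67.4%, 27.8% and 10.7%. The octamer was found in 39.5% of replication-dependent promoters, among them 11 of 15 promoters of H2B genes, in 0 of the variants and in 1.63% of all promoters. The E-box of MYC (CACGTG) and the palindromic estrogen response element were found in 0 of 43 replication-dependent promoters, against 6.34% and 0.0399% of all. The latter is so rare, in 14 of 35116 promoters, that 0 of 43 shows nothing particular to histone genes. The AP-1 site (TGANTCA) was found in 1 of the 43, that of H3C8, against 6.57% of all. All were searched on both strands, and overlaps between motifs were allowed. Divergent H2A and H2B genes share most of such a stretch (245 bases for H2AC6 and H2BC4). A match there can count for both genes, in these shares and in the medians that follow. The 16 replication-dependent genes with an octamer had a median difference of 0.38 for estradiol and 0.22 for tamoxifen against vehicle, and the 24 without had 0.31 and 0.15. The 35 with a CCAAT box had 0.30 and 0.19, and the 5 without 0.34 and 0.068. For the TATA box, the 27 with it had 0.31 and 0.19 and the 13 without 0.31 and 0.15, and none of these differences was tested.

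The deposited values are log2 expression centred on an unrecorded value per probe set, so they show how an array differs from another and not how strongly a gene was expressed. The level of the luminal markers that define T47D, or of any histone gene, can therefore not be read. The value of a gene is the median over its probe sets. Differences below are log2 values relative to the median difference of all genes, which was -0.0057 for estradiol against vehicle, 0.10 for tamoxifen against vehicle and 0.11 for tamoxifen against estradiol. A difference of 1 is 2-fold. The SD between probe sets of the same gene, pooled over all genes, was 0.45, 0.51 and 0.27 in these comparisons. It is the available measure of technical spread and covers neither cultures nor arrays. The vehicle array also stood apart from both treated arrays in control signals. These are given as deposited, not relative to the median of all genes. 18S ribosomal RNA, which has no poly(A) tail, read 1.86 higher with estradiol and 1.96 higher with tamoxifen. The 3′ minus 5′ signal of ACTB (beta actin), a sign of RNA length, differed by -0.78 and -0.77. Polyadenylated control transcripts (median of 24 probe sets) read 0.70 and 0.49 higher. The part of these shifts in any histone value was not tested.

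**Figure D1:**
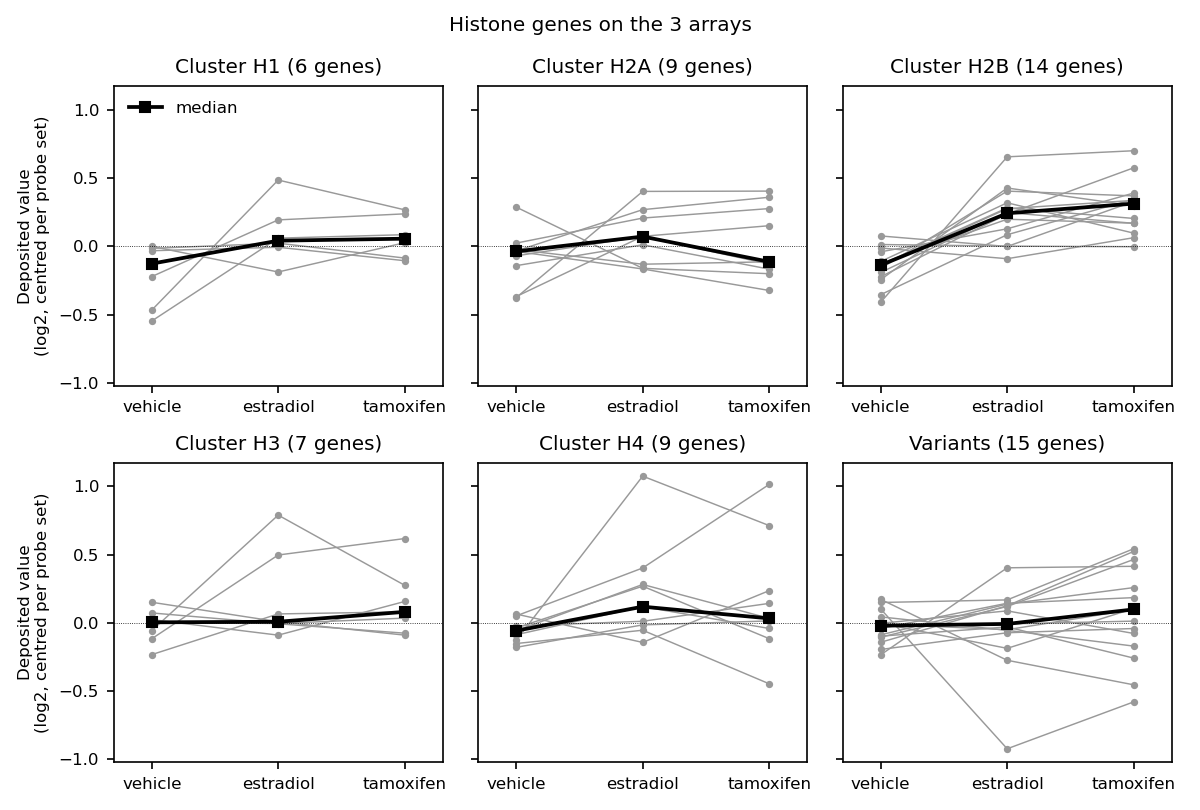
Deposited log2 value (vertical axis, centred per probe set) of each histone gene on the vehicle, estradiol and tamoxifen arrays, in panels for the replication-dependent H1, H2A, H2B, H3 and H4 genes and for the variants. Grey lines are genes and the black line is the median of the panel, which climbs from vehicle to both treated arrays most clearly in the H2B panel. The lowest line among the variants is H1-10, at -0.92 on the estradiol array.

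Replication-dependent genes lay somewhat higher on the estradiol array than on the vehicle array, and the median of the variants lay near 0. Of 45 replication-dependent genes, 33 were above and 12 below the median of all genes, with a class median of 0.30. The 15 variants had a median of 0.027, with 10 above and 5 below, and ranged from -1.02 (H1-10) to 0.64 (H3-3A). They include germ cell or testis forms (H1-7, H1-8, H2AP and H3-4) and pseudogenes (H1-9P and H2BW4P), which lay between -0.18 and 0.15. The shift of the cluster genes was made of many small differences. At least 2-fold differences were seen for H4C8 and H2BC4 on the higher side, and H1-10, a variant, on the lower side, which is 3 of 60 histone genes against 3.31% of all genes (1.62% higher and 1.68% lower). At the lower cutoff of 1.5-fold, 8 of 45 replication-dependent genes (17.8%) were higher against 6.42% of all genes, and 0 of 45 were lower against 8.74% of all genes.

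The same comparison for tamoxifen gave a smaller class shift. Of 45 replication-dependent genes, 28 were above and 17 below the median of all genes on the tamoxifen array relative to vehicle. The class median was 0.15. The 15 variants had a median of 0.0052 and ranged from -0.78 to 0.55. H2BC4 was the only histone gene past 2-fold, where 3.43% of all genes were (1.65% higher and 1.79% lower). At 1.5-fold, 8 of 45 replication-dependent genes (17.8%) were higher against 6.35% of all genes. The count lower at that cutoff was 1 (H2AC4), against 8.87% of all genes. In the values as deposited, the class median for tamoxifen was 0.25, so its size depends on the centring. Both comparisons use the same vehicle array, so a low reading there raises both.

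**Figure D2:**
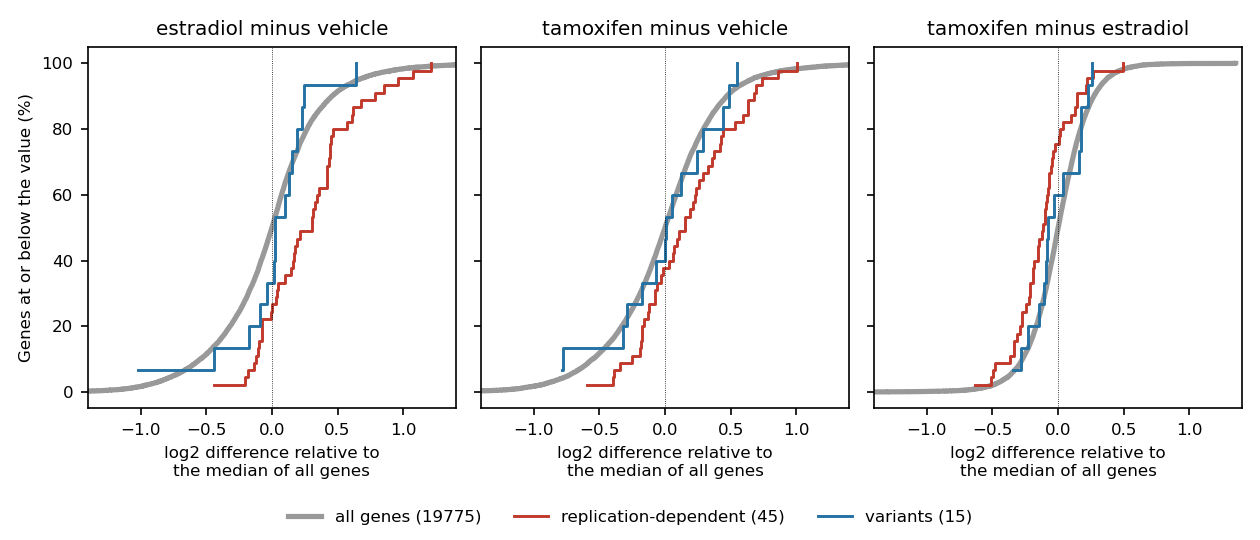
Cumulative share of genes (vertical axis, percent) at or below each log2 difference relative to the median of all genes (horizontal axis), for all 19775 genes, the 45 replication-dependent genes and the 15 variants, in the 3 comparisons. The replication-dependent median lies to the right of all genes for estradiol (0.30) and tamoxifen (0.15) against vehicle, and to the left for tamoxifen against estradiol (-0.11, but 0.0023 as deposited).

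The shift rested in part on probe sets that can read several genes. Of the 51 probe sets of replication-dependent genes, 14 have a suffix other than plain _at (_s_at, _x_at or _a_at). Their median was 0.48 for estradiol and 0.25 for tamoxifen. The suffixes _s_at and _x_at mark sequence that other genes can share, while _a_at, found on a probe set of H1-6, need not. The 37 with the plain suffix _at had 0.17 and 0.068, with 23 and 21 of 37 above 0. Outside the members, 20 probe sets that carry several symbols, all of replication-dependent genes, read the families jointly. Their median was 0.45 for estradiol and 0.34 for tamoxifen, with 15 and 16 of 20 above 0. They come from the same 3 RNA samples and can bind the same transcripts as the members, so they are no separate evidence.

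The families differed in how far they shared in the shift, with H2B the highest by median but not by every measure. The 14 H2B cluster genes had a median of 0.43 for estradiol (11 above 0) and 0.29 for tamoxifen (12 above 0). The 9 H4 genes, with the pseudogene H4C10P among them, had 0.21 (8 above 0) and 0.062 (5 above 0). The 6 linker H1 genes had 0.23 (5 above 0) and 0.14 (3 above 0). The 9 H2A genes had 0.16 (6 above 0) and -0.13 (4 above 0), and the 7 H3 genes -0.0026 (3 above 0) and 0.029 (4 above 0). The H2A and H3 medians were therefore close to or below 0 for tamoxifen. At 1.5-fold for estradiol, 33.3% of H1, 28.6% of H3 and 14.3% of H2B genes were higher, against 6.42% of all genes. The share was 11.1% in both H2A and H4. Differences between families were not tested. Among the probe sets with several symbols, the 5 for H2B ranged from 0.43 to 1.28 for estradiol and from 0.32 to 1.27 for tamoxifen, and the 6 for H4 from 0.084 to 0.62 and from 0.016 to 0.58. The 6 for H2A were of both signs, from -0.15 to 0.51 and from -0.46 to 0.60. Of the 45 genes, 42 lie on chromosome 6, 2 on chromosome 1 (H2AC25 and H2BC21) and 1 on chromosome 21 (H2BC12L).

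H2BC4, an H2B gene of the chromosome 6 cluster (older name HIST1H2BC), was at least 2-fold higher on both treated arrays. Its deposited values were -0.41 with vehicle, 0.66 with estradiol and 0.70 with tamoxifen. The treated arrays lay close together and far from vehicle, which is 2.1-fold for estradiol and 2.01-fold for tamoxifen over a single probe set. The tamoxifen value lies just past the cutoff: it was no longer past 2-fold without _s_at and _x_at probe sets or with probe sets counted in place of genes. The probe set of H2BC4 has the plain suffix _at. In both settings, only the median of all genes that it is set against had changed. A probe set outside the members that reads H2BC4 together with H2BC6, H2BC7, H2BC8 and H2BC10 had differences of 1.28 and 1.27. H2AC6, the H2A gene on the other side of the promoter shown above, had values of -0.38 with vehicle, 0.40 with estradiol and 0.41 with tamoxifen. Its differences were 0.78 and 0.68 over a single probe set with the suffix _s_at, so this divergent pair shared the direction in each comparison. That was also the direction of most replication-dependent genes, 33 of 45 for estradiol and 28 of 45 for tamoxifen.

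Divergent pairs of H2A and H2B genes were compared further. Of 11 such pairs with starts within 500 bases of each other, 4 had both genes measured. H2AC15 and H2BC15 had 0.31 and 0.47 for estradiol and 0.29 and 0.69 for tamoxifen, with the H2AC15 probe sets ranging from -0.18 to 0.80 in the former. H2AC14 and H2BC14 had 0.16 and 0.45 for estradiol, but -0.13 and 0.60 for tamoxifen. H2AC17 and H2BC17 had 0.15 and 0.42, then -0.16 and 0.37. In the latter 2 pairs the H2A gene was therefore below and the H2B gene above the median of all genes on the tamoxifen array. Over the 14 H2B genes, the estradiol difference ranged from -0.073 (H2BC11) to 1.07 (H2BC4), and 2 genes were at least 1.5-fold higher, H2BC4 and H2BC5, against 6.42% of all genes. For tamoxifen these were H2BC4, H2BC15 (0.69) and H2BC14 (0.60), against 6.35% of all genes. The rest of this family (H2BC3, H2BC6, H2BC9, H2BC12, H2BC12L, H2BC13 and H2BC21) lay between -0.072 and 0.57 for estradiol. H2BC1, the testis form of H2B, was at 0.17 and 0.33. H2AC4 was the lowest replication-dependent gene in both, with values of 0.29 with vehicle, -0.16 with estradiol and -0.20 with tamoxifen and differences of -0.44 and -0.59. The pseudogene H2AC5P was at -0.12 and -0.39, and H2AC16 at 0.45 and 0.42.

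Most H4 members encode the same or nearly the same protein, but H4C10P, at 0.21 and -0.057, is a pseudogene. Among the H4 genes, H4C8 (older name HIST1H4H) had the highest value for estradiol. Its deposited values, the median of 2 probe sets, were -0.13 with vehicle, 1.08 with estradiol and 0.71 with tamoxifen. The estradiol array was the highest and the tamoxifen array lay between it and vehicle, a difference of 1.21 (2.31-fold) for estradiol and 0.74 (1.67-fold) for tamoxifen. Its probe set with the suffix _s_at read 1.54 and 0.95, and the one with _at 0.88 and 0.52. H4C5 had the opposite order, with values of 0.051 with vehicle, 0.40 with estradiol and 1.01 with tamoxifen, which gave 0.36 and 0.86. H4C13 was at 0.10 and -0.40, H4C11 at 0.31 and -0.18, and H4C7 at -0.20 and 0.068. The 9 H4 genes thus spread over -0.40 to 0.86 on the tamoxifen array relative to vehicle, a wider range than that of the 6 joint H4 probe sets.

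H3C2 and H3C6 were the H3 cluster genes that passed 1.5-fold for estradiol, where 6.42% of all genes were higher. H3C2 (HIST1H3B), which encodes the replicative histone H3.1, had values of -0.056 with vehicle, 0.79 with estradiol and 0.28 with tamoxifen. It was highest on the estradiol array, with differences of 0.85 for estradiol and 0.23 for tamoxifen against vehicle. Both rest on a single probe set with the suffix _s_at. H3C6, another H3.1 gene, was high on both treated arrays, at 0.62 and 0.63, and its 2 probe sets ranged from 0.48 to 0.76 and from 0.50 to 0.76. H3C8 was at -0.14 and -0.34 and H3C1 at -0.074 and -0.25. The 2 probe sets that read 10 H3 genes together disagreed, at 0.61 and -0.31 for estradiol.

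In the linker family, H1-4, H1-3 and H1-2 were higher on both treated arrays, and H1-10 was lower. H1-4 (H1.4, an abundant somatic linker histone) had values of -0.47 with vehicle, 0.49 with estradiol and 0.27 with tamoxifen, and differences of 0.96 (1.94-fold) and 0.63 (1.55-fold). H1-3 was at 0.61 and 0.53, and H1-2 at 0.42 and 0.36. H1-5, also somatic, was at -0.18 and -0.076, and H1-1 at 0.031 and -0.18. The 2 probe sets of H1-6, the testis form, ranged from -0.22 to 0.31 and -0.45 to 0.099. H1-10 (older name H1FX), a linker variant outside the clusters, had values of 0.10 with vehicle, -0.92 with estradiol and -0.58 with tamoxifen. Both treated arrays lay below vehicle, with the estradiol array the lowest, 2.03-fold lower for estradiol and 1.72-fold for tamoxifen over a single probe set with the suffix _s_at. Its antisense neighbour H1-10-AS1, given above, was not lower. H1-7 and H1-8, germ cell forms, were at 0.15 and 0.097 for estradiol and 0.44 and -0.18 for tamoxifen.

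**Figure D3:**
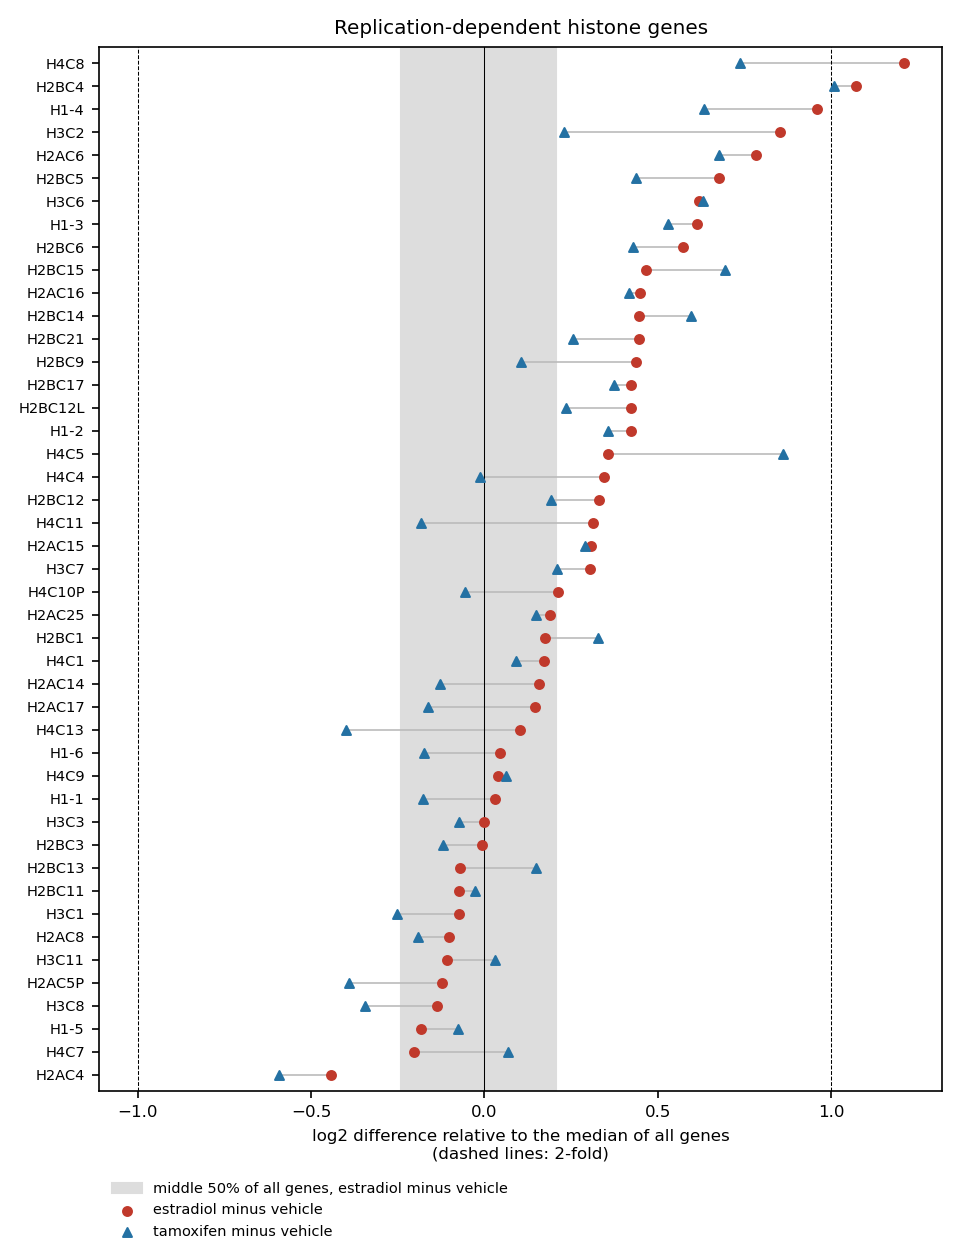
Log2 difference relative to the median of all genes (horizontal axis) for each of the 45 replication-dependent genes (vertical axis, sorted by estradiol minus vehicle), with circles for estradiol and triangles for tamoxifen against vehicle. The grey band holds the middle 50% of all genes for estradiol, from -0.24 to 0.21. The upper genes, from H4C8 (1.21) down, lie to the right of it, and H2AC4 (-0.44) is the only circle to its left.

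The H2A variants differed in direction. H2AJ, a variant reported in luminal epithelial cells and in senescence, was lower on both treated arrays in each of its 4 probe sets. Their deposited values ran from -0.014 to 0.54 with vehicle, -0.30 to -0.15 with estradiol and -0.52 to -0.42 with tamoxifen. The gene value was -0.44 for estradiol and -0.77 for tamoxifen (1.71-fold lower), with probe sets from -0.69 to -0.28 and from -1.06 to -0.52. The tamoxifen array was lower than the estradiol array in 4 of 4 probe sets. H2AX, which is phosphorylated at DNA breaks and whose RNA can end in either way, had no clear direction: its 4 probe sets ranged from -0.32 to 0.63 for estradiol and from -0.57 to 0.60 for tamoxifen. The H2A.Z genes, H2AZ1 and H2AZ2, whose proteins mark promoters and enhancers, were at 0.19 and 0.23 for estradiol and 0.12 and 0.24 for tamoxifen. The 4 probe sets of H2AZ2 spread from -0.27 to 0.62 in the latter.

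MACROH2A1, whose large H2A variant is enriched in silent chromatin, was above the median of all genes in each of its 7 probe sets and in both comparisons with vehicle. The probe sets ranged from 0.082 to 0.49 for estradiol, with a gene value of 0.25, and from 0.053 to 0.67 for tamoxifen, with 0.49. MACROH2A2, its relative, had values of -0.0078 with vehicle, -0.050 with estradiol and 0.099 with tamoxifen, with differences of -0.036 and 0.0033. H3-3A, which encodes the replacement histone H3.3, had values of -0.23 with vehicle, 0.40 with estradiol and 0.42 with tamoxifen, and differences of 0.64 and 0.55. They rest on the only probe set that carries its symbol alone, which has the suffix _s_at. That reading was not shared by the 8 probe sets that carry H3-3A and H3-3B together with a pseudogene or a microRNA symbol: their medians were 0.015 and 0.019. In 7 of these 8 the estradiol difference lay between 0.00097 and 0.097, and the eighth stood apart at -1.27 and -0.87. The H3.3 genes were therefore not given a direction. H3-4, a testis H3, was at -0.093 and -0.32, and H2AP, a testis H2A relative, at 0.025 and 0.29. The remaining variants, H2BW2, H2BW4P and H1-9P, lay between -0.18 and 0.13 for estradiol and between -0.070 and 0.050 for tamoxifen.

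**Figure D4:**
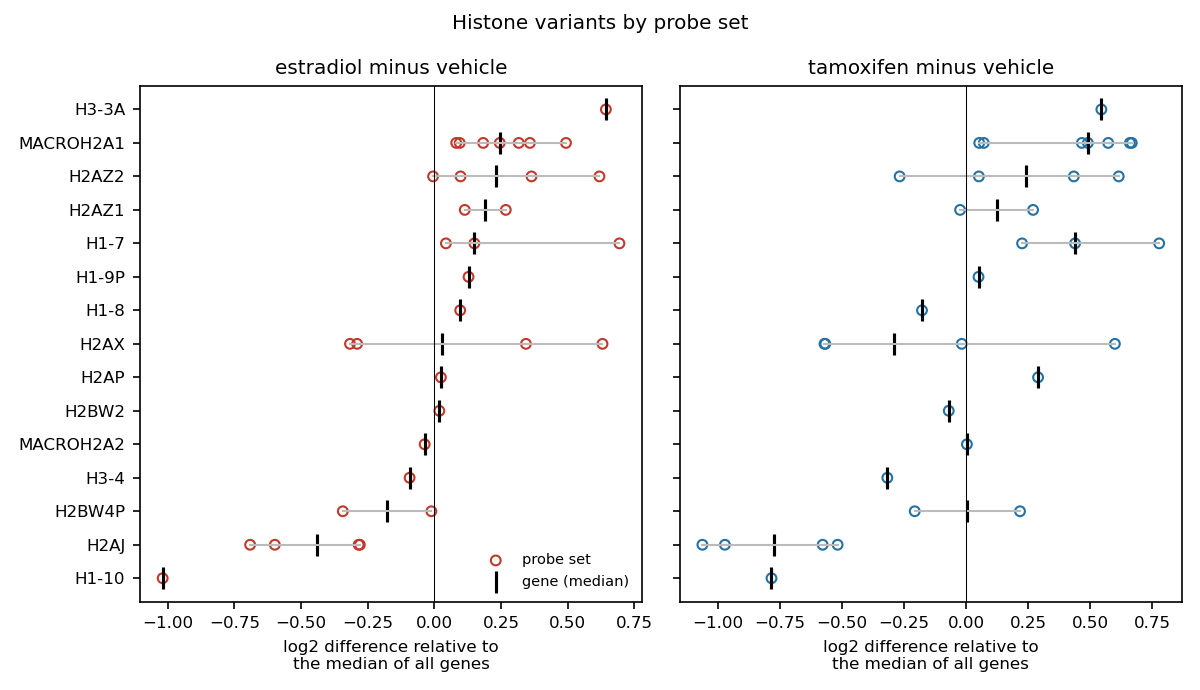
Log2 difference relative to the median of all genes (horizontal axis) for the 15 histone variants (vertical axis), with open circles for probe sets and a bar for the gene, for estradiol (left) and tamoxifen (right) against vehicle. All 4 circles of H2AJ lie left of 0 and all 7 of MACROH2A1 right of it in both panels, while those of H2AX fall on both sides, from -0.32 to 0.63 on the left.

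Between the treated arrays, which differ least in the control signals, no histone gene reached 2-fold, where 0.228% of all genes did (0.0253% higher and 0.202% lower). Of 45 replication-dependent genes, 34 lay below and 11 above the median of all genes on the tamoxifen array relative to estradiol, with a median of -0.11. The median of the 15 variants was -0.074. This direction depends on the centring: as deposited, the medians were 0.0023 and 0.041, with 23 of 45 replication-dependent genes above 0. The genes furthest down were H3C2 (-0.63), H4C13 (-0.51), H4C11 (-0.50) and H4C8 (-0.48), and H3C2 was the 1 histone gene past 1.5-fold, against 1.22% of all genes lower and 0.885% higher. The furthest up was H4C5 (0.50), followed by H4C7 (0.26), H2AP (0.26), H1-10 (0.23), H2BC15 (0.22) and H2BC13 (0.21). Members of the H4 family were thus at both ends. Of the 14 probe sets with a suffix other than plain _at, that of H3C2 among them, 14 lay below 0 (median -0.21). Of the 37 plain ones, 25 did (median -0.076). As deposited, 2 of the 14 (median -0.10) and 24 of the 37 (median 0.039) lay above 0, so the sign of the plain ones turned.

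The genes that make and process histone RNA were of both signs. Of 17 measured, 8 lay above and 9 below the median of all genes for estradiol (median -0.037, 0 past 2-fold), and 10 and 7 for tamoxifen (median 0.22, 1 past 2-fold). Of all genes, 3.31% and 3.43% were past 2-fold. Among those furthest from 0 for estradiol were SYMPK, a scaffold of the RNA cleavage complex, at -0.86 and -1.01, and CPSF2, a subunit of that complex, at 0.84 and 0.60. SLBP, which binds the stem-loop of replication-dependent histone RNA, had values of 0.11 on vehicle, 0.78 on estradiol and 0.75 on tamoxifen, with differences of 0.68 and 0.54. ZNF473, which recruits the processing machinery, was at -0.66 and -0.67.

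Histone chaperones and the complexes that place histones were spread widely. Of 25 genes, 16 lay below the median of all genes for estradiol (median -0.14) and 14 for tamoxifen (median -0.085). In each comparison 1 was past 2-fold above and 1 below, where 3.31% (estradiol) and 3.43% (tamoxifen) of all genes were past it either way. ATRX, the partner of DAXX in placing H3.3, was at 1.01 and 1.23, and IPO4, which imports H3 and H4, at -1.19 and -1.03. DAXX itself was at -0.98 and -0.64, SUPT6H, a histone chaperone of transcription, at -0.99 and -0.76, and SUPT16H, a subunit of the FACT chaperone, at 0.58 and 0.98.

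Genes of DNA replication, the phase in which cluster histones are made, were of both signs and lay mostly lower. Of 21 measured S phase genes, 15 were below the median of all genes in each comparison with vehicle, with medians of -0.18 and -0.27, and 3 were at least 2-fold lower and 1 higher in each. Of all genes, 1.68% and 1.79% were 2-fold lower and 1.62% and 1.65% higher. CDT1 and ORC1, which license replication origins, were at -1.18 and -1.18 for estradiol and -1.30 and -1.30 for tamoxifen, and MCM7, a helicase subunit, at -1.04 for estradiol and also past 2-fold lower for tamoxifen. CCNE2, the cyclin that goes with entry into replication, was at 1.17 and 1.39. Also above the median of all genes were CCNA2 at 0.997 and 0.90 and TYMS at 0.52 and 0.41. RRM1 was at 0.48 and 0.34, RRM2 at 0.39 and 0.15, and MCM6 at 0.035 and 0.055. The replication-dependent histone genes and the S phase genes therefore had medians of opposite sign, at 0.30 and -0.18 for estradiol and 0.15 and -0.27 for tamoxifen. In RNA from whole cultures, a larger share of cells in a cell cycle phase and more RNA per cell cannot be told apart.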

How the data were processed

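RNA of 3 samples was measured on Affymetrix arrays of 54675 probe sets, 1 array per group. The authors deposited log2 expression values from RMA (tool named without a version, per the submitters' processing notes), centred per probe set by a step that no label records. The base of the logarithm follows from RMA and was not checked, and every fold rests on it. Per the labels' protocols, total RNA from spin columns was biotin-labelled by the array maker's procedure.

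Probe sets were named from the platform annotation, and Entrez identifiers of all 60 histone genes matched a GRCh38.p14 gene table with 0 symbols changed. Probe sets with several symbols were left out of gene values. Differences were taken per probe set, summarised by the median per gene and set relative to the median of 19775 genes (Python 3.11.15, pandas 2.3.3), with no filter on signal. A gene counted from an absolute difference of 1 (2-fold), and at 1.5-fold where stated. Genes named are members past 2-fold, the 4 highest and 4 lowest replication-dependent genes per comparison, the 3 highest and lowest between the treated arrays, and 10 fixed variants, of which 8 were measured. Up to 4 genes furthest from 0 are named per list, of 3 lists with 18, 25 and 22 genes. Other genes, such as H2AC6, divergent pairs, further family members and further S phase genes, were named after their values were seen. The members, the lists and the motifs were chosen with earlier results of these data known. Alternatives are in the closing section. The gene summary was tested on shuffled differences with planted shifts larger than 2-fold. That test covered neither class medians nor shifts as small as those of the classes.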

Additional observations from a re-analysis of the deposited data

How the results depend on the processing

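Of 84 values recomputed, 70 stayed within the limits given next, 11 moved further and 3 changed sign. Those limits are wide beside the class values, so staying within them does not show that a value held. A class median counted as moved past a limit: the SD between probe sets divided by the square root of the number of genes. For the distance between class medians, that number was replaced by the inverse of the summed inverses of both class sizes. This made its limit wider. A count moved when it differed by more than 1.5 times. Without _s_at and _x_at probe sets, 47 genes remained. The estradiol count then fell from 3 to 1, the replication-dependent median was 0.16 for estradiol and 0.061 for tamoxifen, its distance from the variants was 0.13 for estradiol, where it had been 0.28, and the variant median for tamoxifen was -0.0027. The tamoxifen count stayed at 1, but as H2AJ on the lower side and not H2BC4. With H2AX and H3-4 counted as replication-dependent, the class median for estradiol was 0.21 and its distance from the variants 0.11. For tamoxifen, the distance between the classes had been 0.14. It was 0.054 in this setting and 0.064 without _s_at and _x_at probe sets, both within the limits. As deposited, the replication-dependent median was 0.25 for tamoxifen against vehicle and 0.0023 for tamoxifen against estradiol, and the variant median 0.041 in the latter. At 1.5-fold the counts were 10, 11 and 1. Adding probe sets with several histone symbols, chosen after seeing the data, gave a tamoxifen count of 2. The causes were not tested, other than that fewer genes, another cutoff or a median of all genes taken anew change what is counted. Counting probe sets in place of genes likewise left the tamoxifen count at 1, with 0 higher and 1 lower. Averaging probe sets and leaving out pseudogenes moved no median and no count past these limits. No paired analysis was possible because each group has 1 array. Signal over background is unknown in centred values, so dim probe sets could not be set aside.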
